A study of Mus musculus with 6 samples.

Results

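The genes described are 56 genes of the nucleolus that make ribosomes, among them subunits and factors of RNA polymerase I. They were picked by gene symbol from a list of ribosome biogenesis and RNA polymerase I genes, a rule that uses no measured level. The list was nevertheless chosen with earlier results of these data known. All 56 were found among the 22116 named genes of the count table. The libraries came from 4T1 cells, a mouse mammary carcinoma line with epithelial features. One group received DMSO, the vehicle, and the other received 10 µM P3FI-90, described by the study as an inhibitor of the histone demethylase KDM3B, for 24 h, with 3 libraries per group. The model is 1 cell line in culture at 1 dose and 1 time, and nothing in the labels says that the 3 libraries of a group came from separate cultures, so p-values measure the spread between these libraries, which may be technical. The mRNA libraries report the messages that encode the ribosome assembly machinery, and the ribosomal RNA itself was not measured.

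Ribosomes are assembled in the nucleolus, where RNA polymerase I copies the ribosomal RNA genes into one long precursor. Small nucleolar RNA-protein particles (snoRNPs) guide chemical changes on that precursor, box C/D particles for methylation and box H/ACA particles for pseudouridylation, while large assemblies fold and cut it into the RNAs of the small and the large ribosomal subunit. Growing tumour cells keep this pathway at a high level, and MYC, a transcription factor that binds the E-box CACGTG, is known to drive many of its genes.

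The libraries held 31327094 to 37395732 counts on named genes. All 6 epithelial markers were present (Epcam, Cdh1, Krt8, Krt18, Krt19 and Cldn7), and their summed level was 110325 to 115967 normalized counts with DMSO and 56042 to 58704 with P3FI-90, where a normalized count is a count scaled to the mean effective library size. The summed level of 6 leukocyte markers was 30.6 to 63.8 normalized counts with DMSO and 135 to 141 with P3FI-90. Most of that sum was Csf1r, which was 34.4, 62.6 and 27.6 with DMSO and 107, 132 and 125 with P3FI-90 (edgeR log2 fold change of 1.56, adjusted p = 2.00e-04), while Ptprc, which marks leukocytes at large, was at most 24.3 and above 0 in 5 of 6 libraries, and the macrophage marker Adgre1 was at 0 in all of them. A list of 5 fibroblast markers summed to 1412 to 1480 with DMSO and 1001 to 1096 with P3FI-90, most of it Pdgfra. The 4 endothelial markers summed to 0 to 13.3 with DMSO and 21.6 to 33.7 with P3FI-90. Among them Pecam1 was higher at very low counts (edgeR log2 fold change of 2.10, adjusted p = 0.0355). The part of these marker differences in the results below was not tested. Since the RNA is bulk, fewer cells of a type and less RNA per cell cannot be told apart.

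After P3FI-90, most of the ribosome biogenesis genes were lower, and the pair with the highest counts, Npm1 and Ncl, was among those that fell furthest. Other abundant members fell less or rose, such as Nop56 at -0.60 and Nop58 at 0.42 on the log2 scale. Npm1 (nucleophosmin, the histone-binding chaperone that fills the outer nucleolus) fell 3.41-fold and Ncl (nucleolin, which binds precursor ribosomal RNA) fell 2.79-fold, and Nop10, the smallest box H/ACA protein, fell 3.5-fold. A smaller set went the other way, led by Utp15, a component of the assembly that first binds the small-subunit precursor. All 56 members passed the filter on low counts, and 35 were lower and 12 higher at an adjusted p under 0.05, by edgeR's quasi-likelihood test with Benjamini-Hochberg adjustment over the 12288 genes tested, while 9 did not pass the test. Of all genes tested, 39.4% were called lower and 39.9% higher, against 62.5% and 21.4% of the members.

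Since so many genes passed the test, sizes were compared as well. A fall of more than 1 on the log2 scale was found for 11 members, 19.6% of them, beside 10.6% of all genes tested, and 0 members rose by more than 1, beside 12.7% of all genes tested. The median log2 fold change was -0.37 over the members and 0.013 over all genes tested, and the standard errors of the members lay between 0.025 and 0.068. In 38 members every P3FI-90 library lay below every DMSO library, an arrangement found in 40.2% of all genes tested, in 12 members every P3FI-90 library lay above (41% of all genes tested), and in 6 the groups overlapped. The median member, set against its own DMSO mean, stood at -0.0092 to 0.0016 on the log2 scale in the DMSO libraries and at -0.40 to -0.35 in the P3FI-90 libraries, so that every P3FI-90 library stood apart from every DMSO library in the same direction.

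**Figure D1:**
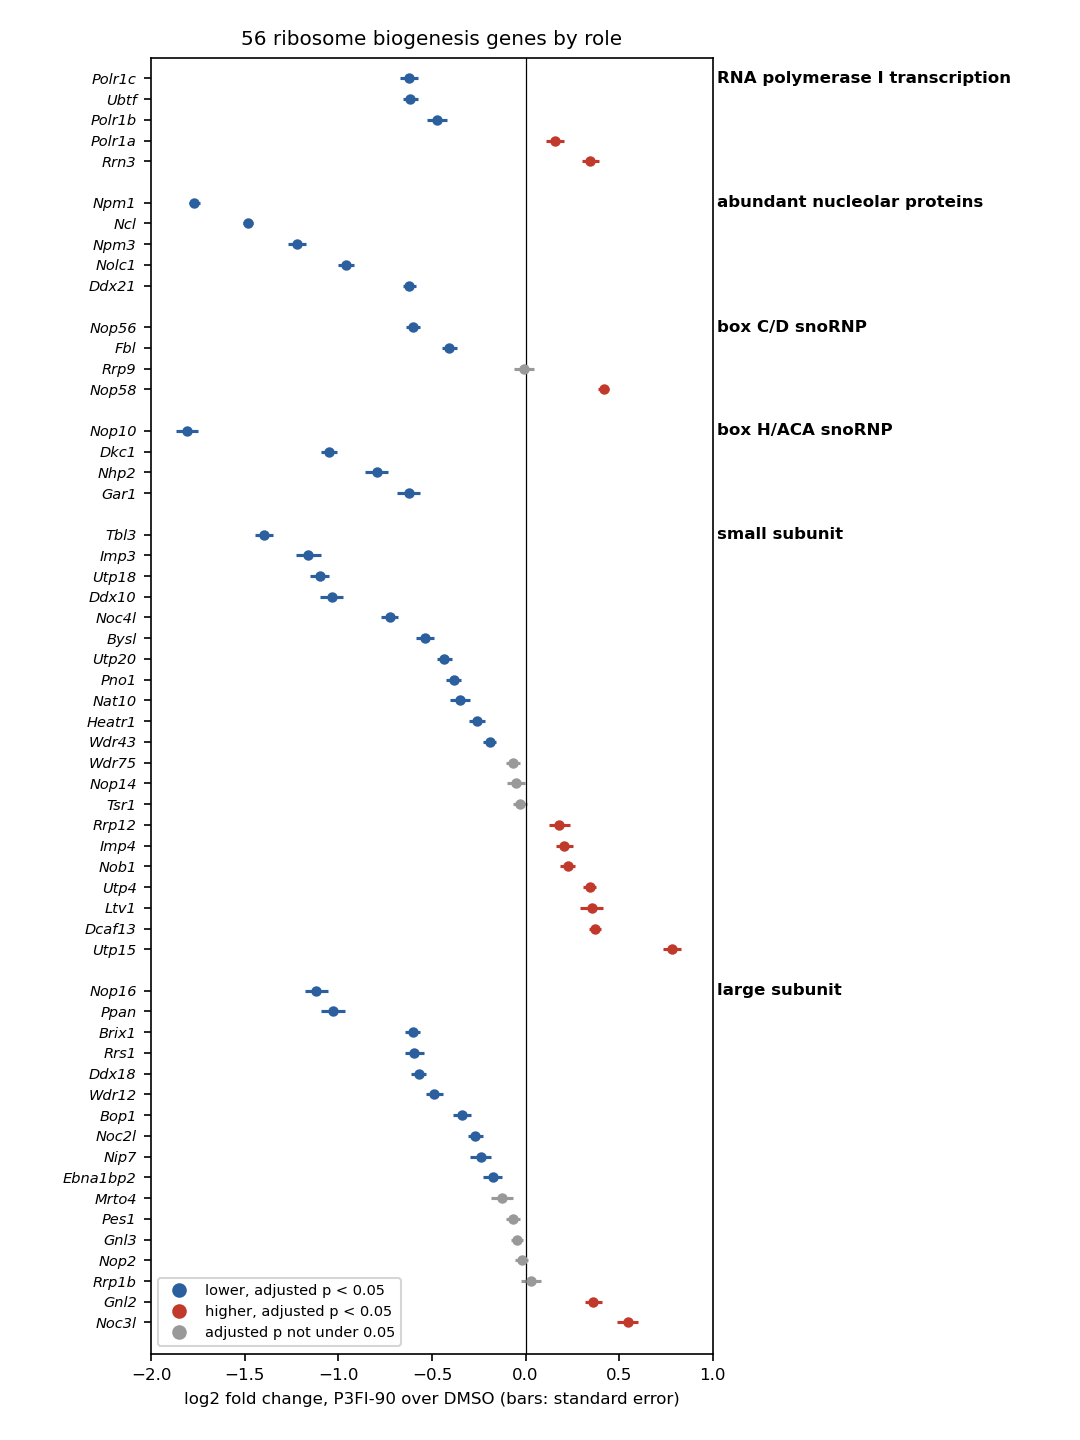
Log2 fold change of P3FI-90 over DMSO for the 56 members, 1 row per gene grouped by role, with bars for the standard error from edgeR (n = 3 libraries per group) and colour for the call. Blue points, 35 genes, are lower at an adjusted p under 0.05, red points, 12 genes, are higher, and grey points, 9 genes, did not pass the test. All genes of the group named abundant nucleolar proteins and all box H/ACA genes lie left of 0. Both subunit groups and the RNA polymerase I group hold genes on both sides. Under total counts 10 genes move from left to right of 0, Wdr43 and Ebna1bp2 among the blue points and Mrto4, Pes1, Wdr75, Nop14, Gnl3, Tsr1, Nop2 and Rrp9 among the grey.

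The direction of the smaller differences depended on how the libraries were scaled. The TMM factors were 0.927 to 0.930 for DMSO and 1.076 to 1.078 for P3FI-90, and scaling by total counts instead raised the median of all genes tested to 0.23 and changed its split from 4841 lower and 4908 higher to 3641 lower and 6179 higher. With total counts, 30 members were lower and 20 higher, and 5 members were lower by more than 1, a fall found in 6.82% of all genes tested at this setting. Each fold change of a member was then 0.214 higher on the log2 scale. The same 30 were lower under both scalings, and the same 12 were higher under both, while Heatr1, Noc2l, Nip7, Wdr43 and Ebna1bp2 were no longer called and 8 of the 9 genes without a call became higher. Scaling cannot alter differences between genes, so the order of the members was the same under both.

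A correction for transcript length and base composition by splines, which gives no p-value, altered single genes more. Of the 47 called members it turned the sign of 2, Polr1a and Imp4, and moved 10 others by over 1.5 times, 6 of them further from 0. Among these, Utp20 went from -0.43 to -0.95, Heatr1 from -0.26 to -0.67, Wdr43 from -0.19 to -0.38 and Wdr12 from -0.49 to -1.11, while Fbl went from -0.41 to -0.21, Rrn3 from 0.35 to 0.17, Rrp12 from 0.18 to 0.078 and Noc3l from 0.55 to 0.30. Nip7 and Ebna1bp2 went to -0.38 and -0.28. The transcript models of Ncl, Imp4 and Wdr12 are 8202, 5836 and 10012 bases, beside a median of 2683 bases over the members, and the correction is rough for these genes.

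Shares of the counts of a library, which amount to scaling by total counts, differed as well. The 56 members held 1.18% to 1.21% of the counts on named genes in the DMSO libraries and 0.830% to 0.846% in the P3FI-90 libraries. Npm1 and Ncl together made up most of that difference, with 0.503% to 0.535% of all counts under DMSO and 0.191% to 0.192% under P3FI-90. The other 54 members together held 0.675% to 0.686% with DMSO and 0.638% to 0.654% with P3FI-90, a small difference in which the groups did not overlap, and which the TMM factors would widen. The summed level therefore follows mainly this pair of genes, while each member has the same weight in the counts of calls.

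Promoter sequences were examined for the E-box, because the pathway is known for this motif. Of the 56 members, 48 matched an entry of the RefSeq promoter table (GRCm38.p6), which gives 250 bases before to 50 bases after each start and lists 57 promoters for them. Bop1, Dcaf13, Fbl, Gnl2, Npm1, Rrp12, Rrs1 and Tbl3 had no entry and were not examined for the motif. The letters CACGTG, which read the same on both strands, were present in 11 of the 57 (19.3%), in 9.74% of the 12285 promoters of genes tested and in 7.15% of all 32851 promoters. They were in 4 of 38 promoters of members that fell, 4 of 9 promoters of members that rose and 3 of 10 promoters of members without a call. The first promoter below is that of Utp18, which fell furthest among the members named here that have an entry and hold the motif. Npm1 and Tbl3, which fell further, have no entry. The promoters of Rrn3 and Imp4, 2 members that rose, were added after their values were seen. Each is the 250 bases before the annotated start, 5′ to 3′ on the strand of the gene, with the E-box in capitals, at chr11:93885767-93886016 on the minus strand for Utp18, chr16:13780449-13780698 on the plus strand for Rrn3 and chr1:34439579-34439828 on the plus strand for Imp4.
Utp18: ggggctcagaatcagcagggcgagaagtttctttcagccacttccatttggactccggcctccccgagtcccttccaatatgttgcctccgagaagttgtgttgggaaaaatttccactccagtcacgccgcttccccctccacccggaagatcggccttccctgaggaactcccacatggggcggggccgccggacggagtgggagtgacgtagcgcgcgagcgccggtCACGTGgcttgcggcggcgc
Rrn3: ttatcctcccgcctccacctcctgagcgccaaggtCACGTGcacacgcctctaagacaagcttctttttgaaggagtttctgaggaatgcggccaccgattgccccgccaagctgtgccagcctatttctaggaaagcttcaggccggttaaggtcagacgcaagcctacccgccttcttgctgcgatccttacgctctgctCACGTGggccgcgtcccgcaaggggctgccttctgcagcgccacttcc
Imp4: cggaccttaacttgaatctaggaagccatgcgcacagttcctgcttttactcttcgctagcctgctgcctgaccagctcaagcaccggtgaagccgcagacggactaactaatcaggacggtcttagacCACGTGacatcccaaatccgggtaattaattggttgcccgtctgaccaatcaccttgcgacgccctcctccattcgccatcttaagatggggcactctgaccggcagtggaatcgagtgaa
The E-box of Utp18 begins 20 bases before the start, that of Imp4 121 bases before it, and Rrn3 holds a pair, at 215 and 48 bases before it. Among the other member promoters that hold the motif, it begins before the start in Nop2. In Utp20, Pno1, Wdr43, Pes1, Tsr1, Utp4 and Ltv1 it begins after the start. The motif was therefore found beside genes of both directions, and a match is a description of these letters only.

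The genes of RNA polymerase I transcription were split, with 3 lower and 2 higher, where 39.4% of all genes tested were lower and 39.9% higher. In what follows each log2 fold change of P3FI-90 over DMSO is given ± its standard error and each group as mean ± SD (n = 3) where single libraries are not listed. Polr1c, a subunit that RNA polymerase I shares with RNA polymerase III, fell from 3352, 3308 and 3251 normalized counts in the DMSO libraries to 2224, 2012 and 2199 in the P3FI-90 libraries (edgeR log2 fold change of -0.62 ± 0.05, adjusted p = 3.93e-08). Ubtf, which bends and opens the ribosomal RNA genes, fell from 8463, 7848 and 8465 to 5311, 5426 and 5444 normalized counts (edgeR log2 fold change of -0.61 ± 0.038, adjusted p = 2.19e-09), and Polr1b, the second largest subunit, fell from 2376, 2355 and 2406 to 1826, 1646 and 1675 (log2 fold change of -0.47). In these 3 genes the highest P3FI-90 library was below the lowest DMSO library. Polr1a, the catalytic subunit, rose slightly, from 3131, 2947 and 3064 to 3208, 3559 and 3414 normalized counts (edgeR log2 fold change of 0.15 ± 0.049, adjusted p = 0.00964). That rise was the least firm of the group, since the call was lost without P3FI-90 replicate 2 (edgeR adjusted p = 0.0534) and the fold change was -0.32 after the correction for length and base composition. Rrn3, the factor that brings the polymerase to its promoter, rose from 3066, 2977 and 3278 to 4039, 3979 and 3838 normalized counts (edgeR log2 fold change of 0.35 ± 0.046, adjusted p = 8.07e-06). The calls for Polr1b and Polr1a, which form the active centre together, were thus in opposite directions.

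All 5 genes of the group named abundant nucleolar proteins fell, where 39.4% of all genes tested were lower. Their median log2 fold change was -1.22. The name is not a ranking by counts. Npm3 had a DMSO mean of 3841, near the median of 3789 over the members, while Nop56 (18624) and Nop58 (11099) are in another group. Npm1 (ENSMUSG00000057113) was the most abundant member, with 116964, 121849.6 and 112383 normalized counts in the DMSO libraries and 34411, 34471 and 34158 in the P3FI-90 libraries (edgeR log2 fold change of -1.77 ± 0.029, adjusted p = 4.93e-15). Ncl (ENSMUSG00000026234) followed with 78136, 79854 and 77520.2 normalized counts in the DMSO libraries and 27839, 28153 and 28275 in the P3FI-90 libraries (edgeR log2 fold change of -1.48 ± 0.025, adjusted p = 4.93e-15). In both genes the P3FI-90 libraries were within a narrow band, far under the lowest DMSO library. Npm3, the nucleophosmin relative, had 3806, 3948 and 3770.1 normalized counts in the DMSO libraries and 1711, 1616 and 1621 in the P3FI-90 libraries (edgeR log2 fold change of -1.22 ± 0.047, adjusted p = 1.52e-11). Nolc1, a phosphoprotein that binds snoRNPs, fell from 11022 ± 503 to 5669.5 ± 211 normalized counts, and Ddx21, an RNA helicase of the nucleolus, fell from 13654 ± 159 to 8874 ± 309. Npm1 and Npm3 carry a limit, since 40.9% and 36.1% of their 50-base windows also occur in other annotated genes, most often in a pseudogene copy, and the counting could have split such reads.

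**Figure D2:**
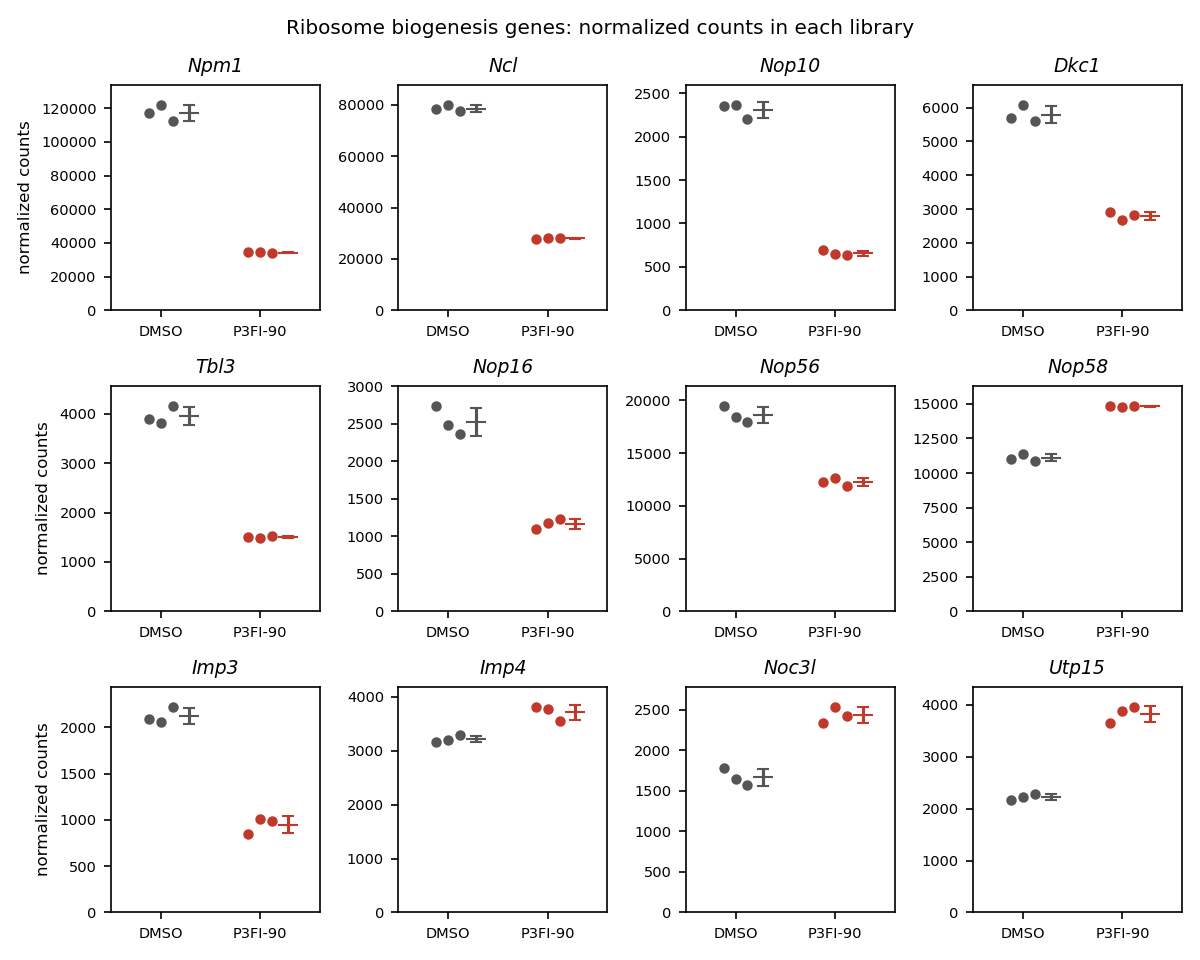
Normalized counts of 12 members in each library, with DMSO in grey and P3FI-90 in red, 3 points per group and the mean with its standard deviation beside them. Each vertical axis starts at 0 and has its own range. Npm1, Ncl, Nop10, Dkc1, Tbl3, Nop16, Nop56 and Imp3 are lower in every P3FI-90 library, while Nop58, Imp4, Noc3l and Utp15 are higher in every one.

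Box H/ACA snoRNPs, which also sit in telomerase, were lower in all 4 protein subunits, where 39.4% of all genes tested were lower. The median log2 fold change of the 4 was -0.92. Nop10 (ENSMUSG00000027133) had the largest fall of all members under TMM, with 2351, 2363 and 2205 normalized counts in the DMSO libraries and 691, 649 and 634 in the P3FI-90 libraries (edgeR log2 fold change of -1.81 ± 0.058, adjusted p = 2.47e-12). After the correction for length and base composition it was at -1.75, behind Ncl at -2.01 and Npm1 at -1.84. Dkc1, the pseudouridine synthase called dyskerin, had 5682, 6077 and 5615 normalized counts in the DMSO libraries and 2901, 2672 and 2813 in the P3FI-90 libraries (edgeR log2 fold change of -1.05 ± 0.044, adjusted p = 3.62e-11). Nhp2, which binds the guide RNA, had 4419, 3843 and 4082 normalized counts in the DMSO libraries and 2301, 2579 and 2237 in the P3FI-90 libraries (edgeR log2 fold change of -0.79 ± 0.062, adjusted p = 2.82e-08). No P3FI-90 library reached the lowest DMSO library in any of these 3 genes. Gar1, the remaining core protein, fell less, from 1566 ± 18.7 to 1015 ± 69.2 normalized counts (log2 fold change of -0.63). Within each library the ratio of raw Nop10 to Gar1 counts was 1.49, 1.5 and 1.43 with DMSO and 0.636, 0.643 and 0.668 with P3FI-90, so the subunits did not fall by one factor. Exons of Dkc1 overlap those of Mpp1 and exons of Nhp2 those of Rmnd5b. Mpp1 was lower as well (log2 fold change of -1.31) and Rmnd5b was higher (0.35).

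Box C/D genes were split, with 2 lower, 1 higher and 1 not called, where 39.4% of all genes tested were lower and 39.9% higher. Their median log2 fold change was -0.21, or 0.0070 under total counts and -0.016 after the correction. Nop56, a core scaffold protein, fell from 19467, 18432 and 17973 normalized counts in the DMSO libraries to 12267, 12621 and 11898 in the P3FI-90 libraries (edgeR log2 fold change of -0.60 ± 0.037, adjusted p = 1.83e-09). Its partner in the same particle, Nop58, rose from 11031, 11378 and 10889 to 14839, 14804 and 14818 (edgeR log2 fold change of 0.42 ± 0.031, adjusted p = 1.62e-08). Neither gene had overlapping groups, and the order of the partners was turned around, Nop56 being the higher count of the pair in all DMSO libraries and Nop58 in all P3FI-90 libraries. Fbl, the methyltransferase fibrillarin, fell from 7766, 7361 and 8102 to 5932, 5642 and 5939 (edgeR log2 fold change of -0.41 ± 0.041, adjusted p = 4.24e-07). However, 73.0% of its windows also occur in other annotated genes, most often Tulp4, which was higher (log2 fold change of 0.97), so the value for Fbl is uncertain. Rrp9, a protein of the snoRNP that guides the first cuts, had 2251, 2209 and 2151 normalized counts in the DMSO libraries and 2247, 2270.4 and 2061 in the P3FI-90 libraries, overlapping groups that did not pass the test (log2 fold change of -0.0069, adjusted p = 0.909). Nop56 shares 37.6% of its windows with other annotated genes and overlaps exons of Idh3b, whose log2 fold change was -0.032.

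Genes for the small subunit, the largest role group, ranged from -1.40 to 0.78 on the log2 scale, the widest range of the groups. Over all genes tested the 5th and 95th percentiles were -1.39 and 1.82. Of 21 genes, 11 fell (52.4%), 7 rose and 3 were not called, where 39.4% of all genes tested were lower and 39.9% higher. The median of -0.19 became 0.022 under total counts, with 9 lower and 10 higher, and -0.38 after the correction for length and base composition. Tbl3, which belongs to the UtpB complex, fell from 3897, 3815 and 4155 to 1505, 1482 and 1516 normalized counts (edgeR log2 fold change of -1.40 ± 0.049, adjusted p = 5.35e-12). Imp3, which docks the guide snoRNA of the first cuts on the precursor, fell from 2089, 2058 and 2218 to 848, 1007 and 992 (edgeR log2 fold change of -1.16 ± 0.068, adjusted p = 1.13e-09), and Utp18, another UtpB protein whose promoter is printed above, fell from 3066, 3326 and 3134 to 1474, 1519 and 1454 (edgeR log2 fold change of -1.10 ± 0.051, adjusted p = 1.03e-10). The P3FI-90 libraries of all 3 genes lay under the DMSO libraries by a wide margin. Ddx10, an RNA helicase, also fell by more than 1 (log2 fold change of -1.04). Smaller falls were found for Noc4l (-0.73), Bysl (-0.54), Utp20 (-0.43), Pno1 (-0.38), Nat10 (-0.35) and Heatr1 (-0.26), on the log2 scale. Noc4l works with Nop14, Bysl and Pno1 act in late precursor cutting, and Nat10 acetylates the RNA. Wdr43, a UtpA protein and the most abundant of the small-subunit members, fell little, from 9469, 9579.5 and 9052 to 8292, 8326 and 7973 normalized counts (edgeR log2 fold change of -0.19 ± 0.035, adjusted p = 1.80e-04).

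The 7 small-subunit genes that rose were Utp15, Dcaf13, Ltv1, Utp4, Nob1, Imp4 and Rrp12. Utp15, of the UtpA complex, had the largest rise of all members under TMM, with 2169, 2228 and 2280.0 normalized counts in the DMSO libraries and 3659.6, 3875 and 3959 in the P3FI-90 libraries (edgeR log2 fold change of 0.78 ± 0.047, adjusted p = 1.54e-09). Utp4, from the same complex, rose from 6447, 6651 and 6823 to 8138, 8564 and 8546 (edgeR log2 fold change of 0.34 ± 0.036, adjusted p = 8.13e-07), and Dcaf13 rose from 4367, 4415 and 4391 to 5703, 5664 and 5679 (edgeR log2 fold change of 0.37 ± 0.033, adjusted p = 1.08e-07). Their groups did not overlap, and Dcaf13 was the tightest of them within each group. Ltv1, needed for export of the pre-subunit, rose from 1537, 1768 and 1579.9 to 2066, 2177 and 1987 normalized counts (log2 fold change of 0.35), and Nob1, the nuclease that makes the last cut of the small-subunit RNA, rose from 3465, 3358 and 3596 to 4169, 4009 and 4001 (0.22). Imp4, the partner of Imp3, rose from 3165, 3198 and 3287 to 3810.2, 3779 and 3551 (0.21), a direction that turned to -0.14 after the same correction, which is rough for this gene because its transcript model is long. Rrp12, an export factor, rose from 1749.7, 1689 and 1819.7 to 1939, 1896 and 2119.9 (edgeR log2 fold change of 0.18 ± 0.056, adjusted p = 0.00967), a call that was lost without P3FI-90 replicate 3 (adjusted p = 0.0678). In the 4 genes from Ltv1 to Rrp12 every P3FI-90 library was above every DMSO library.

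The 3 small-subunit genes without a call were Wdr75, Nop14 and Tsr1. Wdr75, another UtpA protein, had 4341, 4489.8 and 4419 normalized counts in the DMSO libraries and 4182, 4161 and 4297 in the P3FI-90 libraries, with every P3FI-90 library below every DMSO library but an adjusted p of 0.0976 by edgeR. Nop14 had 4279, 3985 and 3924 normalized counts in the DMSO libraries and 3725, 4004 and 4034 in the P3FI-90 libraries, with overlapping groups (edgeR adjusted p = 0.317). Tsr1, a GTPase-like factor of late assembly, had 4467, 4715 and 4846 normalized counts in the DMSO libraries and 4610.2, 4492 and 4629.6 in the P3FI-90 libraries, again with overlap (edgeR adjusted p = 0.476). A missed threshold does not show that these levels were equal.

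Among 17 genes for the large subunit, 10 fell (58.8%), 2 rose and 5 did not pass the test, where 39.4% of all genes tested were lower. The share of all genes tested that was higher was 39.9%. The median of the 17 was -0.24 (-0.026, with 7 lower and 6 higher, under total counts). Nop16 fell from 2735, 2479 and 2369 to 1096, 1175 and 1226 normalized counts (edgeR log2 fold change of -1.12 ± 0.064, adjusted p = 8.94e-10), and Ppan, a factor of early pre-subunits, from 2521, 2673 and 2738 to 1259, 1419.8 and 1203 (edgeR log2 fold change of -1.03 ± 0.064, adjusted p = 2.19e-09). Brix1, an assembly factor, fell from 5629.5, 5687 and 5656 to 3923, 3737 and 3512 (edgeR log2 fold change of -0.60 ± 0.041, adjusted p = 7.01e-09). All P3FI-90 values of these 3 genes were under the DMSO values. Noc2l, the most abundant member of this group, fell from 9976, 9769 and 9783 to 7915, 8643 and 7963 (edgeR log2 fold change of -0.27 ± 0.038, adjusted p = 1.74e-05). On the log2 scale the remaining falls were -0.59 for Rrs1, -0.57 for Ddx18, -0.49 for Wdr12, -0.34 for Bop1, -0.24 for Nip7 and -0.18 for Ebna1bp2. Rrs1 helps bring in the ribonucleoprotein of the small ribosomal RNA of the large subunit, Ddx18 is an RNA helicase, and Wdr12 and Bop1 form the PeBoW complex with Pes1. Of the windows of Ddx18, 62.7% also occur in other annotated genes, most often Gm16433. The same holds for 25.1% of the windows of Pes1 and 20.1% of those of Noc2l, with other genes. Exons of Wdr12 overlap those of Carf, which was higher (log2 fold change of 1.14).

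Noc3l and Gnl2 were the large-subunit genes that rose. Noc3l, which pairs with Noc2l, had 1781, 1652 and 1571 normalized counts in the DMSO libraries and 2343, 2535 and 2425 in the P3FI-90 libraries (edgeR log2 fold change of 0.55 ± 0.057, adjusted p = 7.03e-07). Gnl2, a GTPase needed for export of the large pre-subunit, had 3096, 3131 and 3163 normalized counts in the DMSO libraries and 4094, 4202 and 3775 in the P3FI-90 libraries (edgeR log2 fold change of 0.36 ± 0.046, adjusted p = 5.29e-06). The groups did not overlap in either gene. Gnl3 (nucleostemin), a GTPase of the same family as Gnl2, had 6751, 6766 and 6868 normalized counts in the DMSO libraries and 6613, 6583 and 6530.1 in the P3FI-90 libraries, and although every P3FI-90 library was lower, it did not pass the test (edgeR adjusted p = 0.189).

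The other large-subunit genes without a call were Pes1, Mrto4, Nop2 and Rrp1b. Pes1 had 6816, 6386 and 6535 normalized counts in the DMSO libraries and 6310.4, 6359 and 6151 in the P3FI-90 libraries (edgeR adjusted p = 0.0959), and Mrto4, a stalk assembly factor, had 2772, 2361 and 2532 normalized counts in the DMSO libraries and 2365, 2311 and 2359.9 in the P3FI-90 libraries (edgeR adjusted p = 0.0633). Every P3FI-90 library of Pes1 was below every DMSO library, and those of Mrto4 overlapped. Nop2, an RNA methyltransferase, had 4680.3, 4783 and 4726 normalized counts in the DMSO libraries and 4789.9, 4688 and 4495 in the P3FI-90 libraries (edgeR adjusted p = 0.588), and Rrp1b had 3938, 3477 and 3797 normalized counts in the DMSO libraries and 4087, 3728 and 3636 in the P3FI-90 libraries (edgeR adjusted p = 0.623). The groups of both overlapped, and the fold changes were -0.022 and 0.03 on the log2 scale.

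Since partners of one complex moved apart, ratios of raw counts were taken within each library, which cancels any scaling between libraries. The pairs were chosen after their values were seen, and with 3 libraries against 3 the exact two-sided permutation test gave 0.1 for each pair, the smallest p it can give, so it cannot pass 0.05. The ratio of Nop56 to Nop58 was 1.76, 1.62 and 1.65 with DMSO and 0.827, 0.853 and 0.803 with P3FI-90, a log2 change of -1.02. For Imp3 to Imp4, partners that bind the precursor with Mphosph10, it was 0.66, 0.644 and 0.675 against 0.223, 0.266 and 0.279 (log2 change of -1.37). For Noc2l to Noc3l it was 5.6, 5.91 and 6.23 against 3.38, 3.41 and 3.28 (-0.82). In all 3 pairs the ratios of the groups were far apart and did not overlap. Of Wdr43 to Utp15, both from UtpA, the ratio was 4.37, 4.3 and 3.97 against 2.27, 2.15 and 2.01, and of Polr1b to Polr1a it was 0.759, 0.799 and 0.785 against 0.569, 0.463 and 0.491. Bop1 to Pes1 changed less, from 0.834, 0.851 and 0.835 to 0.665, 0.744 and 0.677 (log2 change of -0.28). The partners in these chosen pairs therefore changed unequally within the libraries themselves, whichever scaling is used. A ratio does not cancel trends of transcript length or base composition, or shared reads. After the correction for length and base composition, Imp3 and Imp4 were at -0.90 and -0.14, and Polr1b and Polr1a at -0.63 and -0.32. Bop1 and Pes1 were then at -0.25 and -0.15. Nop56 and Nop58 (-0.61 and 0.35), Noc2l and Noc3l (-0.23 and 0.30) and Wdr43 and Utp15 (-0.38 and 0.55) stayed in opposite directions. Genes in general also changed unequally, since the log2 fold changes of all genes tested ran from -0.52 at the 25th percentile to 0.57 at the 75th. Ratios of pairs of other genes were not taken, so the unequal changes are not shown to be particular to these complexes.

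**Figure D3:**
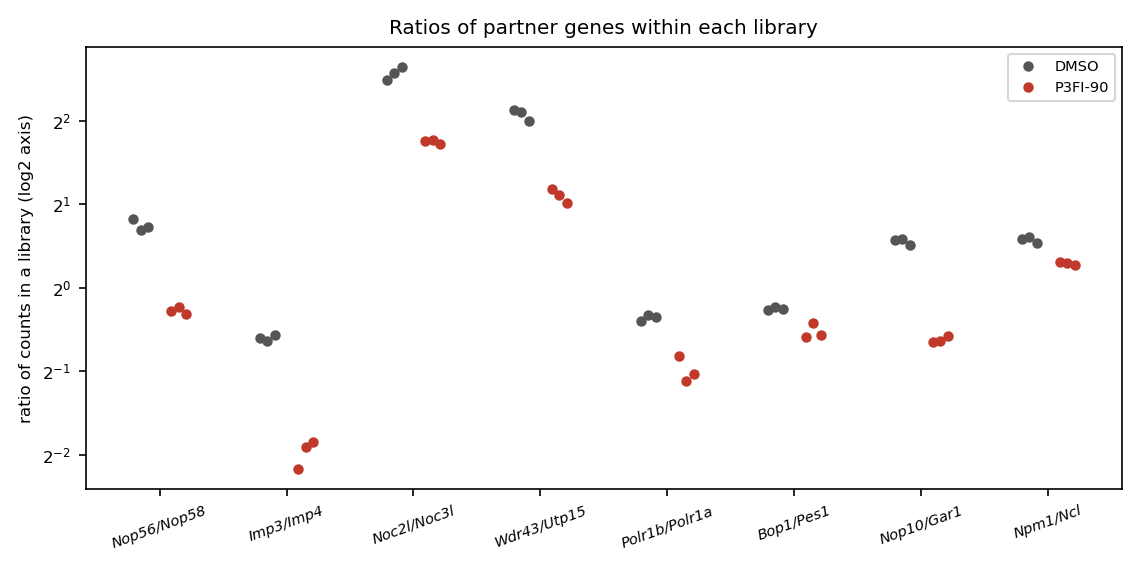
Ratio of raw counts of partner genes in each library on a log axis, with DMSO in grey and P3FI-90 in red and 3 points per group. Each pair has separate groups, and the ratio of Nop56 to Nop58 lies between 1.62 and 1.76 with DMSO and between 0.803 and 0.853 with P3FI-90.

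Members without a near copy elsewhere in the annotation were also counted apart. Of the 56 members, 15 had more than 5% of their 50-base windows in another annotated gene and 10 had more than 20%, and 13 had exons that overlap another gene of the table. Over the 41 members with at most 5% shared windows, 23 were lower, 12 higher and 6 not called, the median was -0.26 and 7 were lower by more than 1, where 39.4% of all genes tested were lower, 39.9% higher and 10.6% lower by more than 1. All 12 genes that rose were among these 41. Tbl3 has 36.6% of its windows in other genes, most often Noxo1, and overlaps that gene. Noxo1 had a mean of 13.8 normalized counts with DMSO and 12.2 with P3FI-90 against 3956 ± 177 and 1501 ± 17.6 for Tbl3.

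Other properties that the list did not use were close to those of all genes, except the level. The median transcript length was 2683 bases for members and 2993 for all genes tested, and the median GC content 48.4% and 50.5%. The median DMSO level was 3789 normalized counts for members and 1235 for all genes tested. Across the 56 members, the rank correlation of log2 fold change was 0.19 with length, -0.12 with DMSO level and -0.093 with GC content, beside 0.23, -0.27 and -0.14 over all genes. These are descriptions across genes of the same 6 libraries, and genes are not independent replicates.

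The rest of the pathway also held calls in both directions. A list of 130 other ribosome biogenesis genes had 119 in the table and 118 that were tested, of which 61 were lower (51.7%, beside 39.4% of all genes tested), 36 higher and 21 not called. The median log2 fold change of these genes was -0.15, turning to 0.060 under total counts. By more than 1, 4 were lower (3.39%) and 3 higher, beside 10.6% and 12.7% of all genes tested. Of the 11 other genes for RNA polymerase I and its factors, 3 fell and 6 rose, with a median of 0.22 that was 0.43 under total counts and 0.055 after the correction. The subunit Polr1g fell from 1552 ± 52.4 to 766 ± 23.6 normalized counts (log2 fold change of -1.02), and Taf1a, of the selectivity factor that marks the promoter, rose from 551 ± 82.5 to 893 ± 64.7 (0.70). Like the 5 RNA polymerase I members, this list held changes in both directions, as did all genes tested, with 39.4% lower and 39.9% higher.

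The lists that follow are set beside 39.4% of all genes tested lower and 39.9% higher. In the order given, 63.6%, 57.5%, 47.6% and 57.1% of their genes were lower. Of 11 genes for snoRNP assembly, 7 fell and 2 rose, with a median of -0.28 (-0.065, with 5 lower and 3 higher, under total counts). Ruvbl1, an ATPase that helps build both kinds of snoRNP, fell from 4370.3 ± 137 to 2292 ± 101 (log2 fold change of -0.93), and Tgs1, which methylates the cap of small nuclear and nucleolar RNAs, rose from 1367 ± 87.4 to 2379 ± 60 (0.80). Of 40 other small-subunit genes, 23 fell and 11 rose, with a median of -0.18 that was 0.036 under total counts and -0.31 after the correction. Wdr36 had the largest fall of the list, from 13888 ± 489 to 4970.2 ± 87.6 (edgeR log2 fold change of -1.48 ± 0.036, adjusted p = 1.71e-13). Ngdn had the largest rise, from 1452 ± 42 to 3150.4 ± 146 (1.12). Of 42 other large-subunit genes, 20 fell and 13 rose, with a median of -0.090 that was 0.12 under total counts and -0.21 after the correction. In that list Mybbp1a fell furthest, from 19701 ± 785 to 10055 ± 161 (-0.97), and Sbds, which helps to release Eif6 from the pre-subunit, rose furthest, from 2086 ± 147 to 4369.7 ± 176 (1.07). Of 14 genes for the RNA exosome and nucleases, 8 fell and 4 rose, with a median of -0.42 (-0.21 under total counts), Exosc4 at -0.69 and Exosc2 at 0.87 being the ends of the list. The third partner of Imp3 and Imp4, Mphosph10, named after its value was seen, rose with Imp4, from 2056 ± 18.4 to 3065 ± 76.7 (0.58).

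The proteins of the finished ribosome were set beside the members, since they are the other large class of ribosome genes. Of 79 cytosolic ribosomal protein genes, 77 were lower (97.5%), 0 higher and 2, Rps27a and Rpl35a, not called, with a median log2 fold change of -0.74 and 20 lower by more than 1. They held 5.45% to 5.54% of counts in the DMSO libraries and 3.86% to 4.05% in the P3FI-90 libraries. Of the members, with 35 lower and 12 higher, Nop10 (-1.81) and Npm1 (-1.77) fell further than the furthest ribosomal protein gene (-1.70). Falls of more than 1 were less frequent among the members, at 19.6%. The ribosomal protein list had 0 rises in this test and 1 under total counts. Of 77 mitochondrial ribosomal protein genes, 45 were lower and 12 higher, with a median of -0.39 beside -0.37 for the members, or -0.17 beside -0.44 after the correction for length and base composition. Among 8 subunits of RNA polymerase II, 3 were lower and 3 higher with a median of -0.018 (0.20 under total counts), and among 10 subunits of RNA polymerase III, 6 were lower and 3 higher with a median of -0.23 (-0.019 under total counts). These lists are described by their counts and medians, and no test between lists was made.

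**Figure D4:**
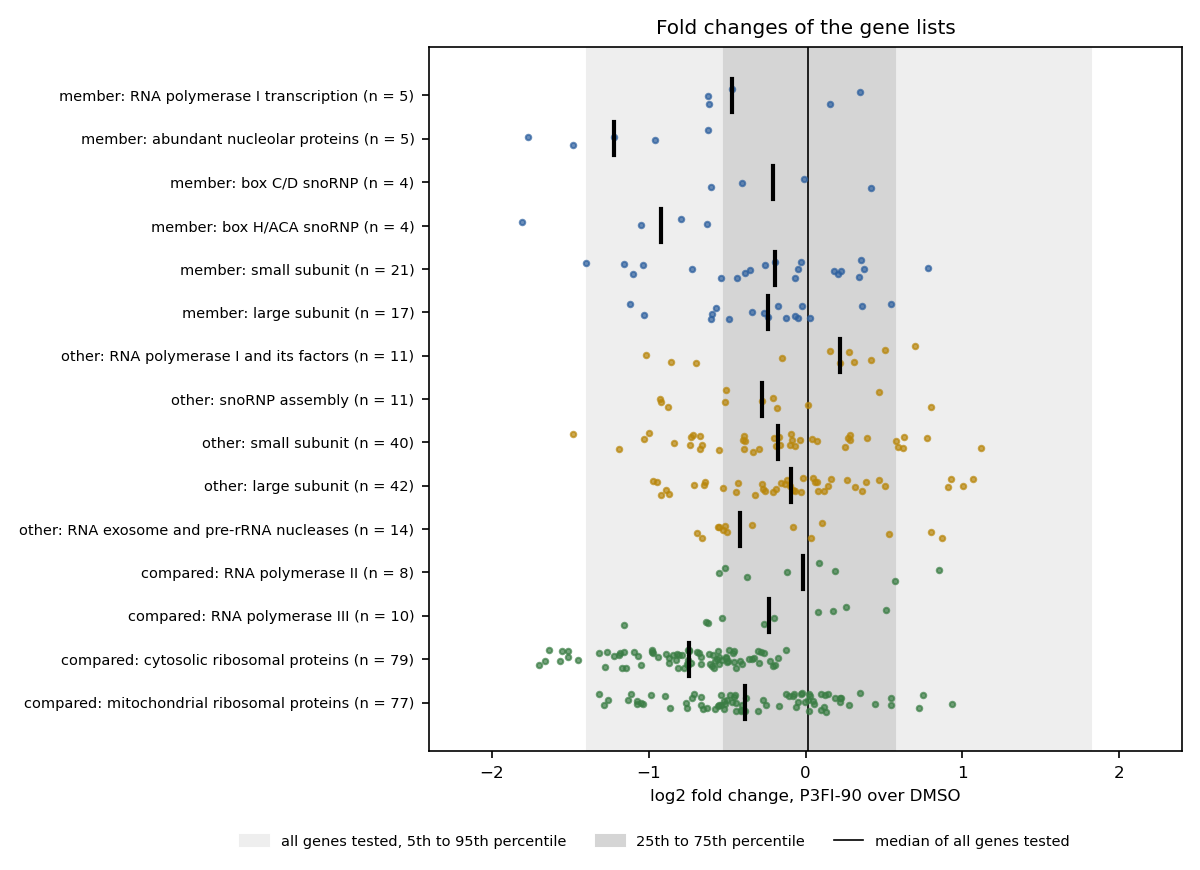
Log2 fold change of each gene in the 6 role groups of members (blue), the 5 lists of other pathway genes (yellow) and the 4 compared lists (green), 1 point per gene, with a bar for the median of the list. The grey bands mark the 5th to 95th and the 25th to 75th percentile of all 12288 genes tested. The group named abundant nucleolar proteins has a median of -1.22 and the box H/ACA group of -0.92. Both subunit groups spread on either side of 0. Under total counts the median of the small-subunit members is 0.022.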

How the data were processed

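RNA-seq libraries of 4T1 cells (3 with DMSO, 3 with 10 µM P3FI-90 for 24 h) were analysed from the deposited table of counts, which the authors made as whole numbers of reads for each gene with no normalization. The submitters' processing notes name CASAVA, HISAT2, StringTie and GRCm39. Their versions and roles, the counting step and its strandedness are not given in the sources used here. Without strand, reads of overlapping genes cannot be told apart. A count of 2 was more frequent than a count of 1 in all libraries (311 genes against 81 in DMSO replicate 1), and whether both mates of a pair were counted is not known.

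Of 22401 rows, 285 assembled transcripts without a gene name (0.483% to 0.556% of counts) were left out, and 22116 named genes were kept. Low counts were removed with filterByExpr, libraries were scaled by TMM and groups were compared by the quasi-likelihood test of edgeR 4.0.16 in R 4.3.3, with Benjamini-Hochberg adjustment over 12288 genes, without a batch or pairing term. The study names limma for its own test. The unit of counts calls for the edgeR test, and limma 3.58.1 and DESeq2 1.42.0 were alternatives. The common biological coefficient of variation was 0.0648. Fold changes are P3FI-90 over DMSO, with the standard error from the fit. The chi-square per gene was 5.44 to 8.43 between libraries of a group, more than counting noise, and 351 to 394 between libraries of different groups.

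Lengths, GC content, shared 50-base windows and overlaps were taken from GENCODE M21 (GRCm38), and promoters from the RefSeq table (GRCm38.p6). These builds differ from the submitters' GRCm39, so they were joined by gene only. The noncoding snoRNA host genes on the list of other genes were not analysed here, and Exosc6 did not pass the filter.

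Members, lists, pairs and tests were chosen with earlier results of these data known. Values in every library are given, per role group, for the 3 members with the largest absolute fold change, the most abundant member, and each member not called or called against most of its group. From each other list the largest fall and rise among called genes are named. There were 16 alternatives, 6 of them leaving out 1 library.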

Additional observations from a re-analysis of the deposited data

How the results depend on the processing

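The 35 lower and 12 higher members were 35 to 37 and 11 to 12 in every setting that gave p-values except total counts (30 lower, 20 higher) and upper quartiles (39 lower, 12 higher), and 30 of the 35 and 10 of the 12 were called in the same direction in all 16 settings with p-values. Under total counts 838 genes in all and 5 members were lower by more than 1, and the medians were -0.15 for members, 0.060 for other pathway genes, -0.53 for cytosolic and -0.17 for mitochondrial ribosomal proteins, 0.20 for RNA polymerase II and -0.019 for RNA polymerase III. The sign then turned for Wdr43 (0.022), Ebna1bp2 (0.038), Mrto4 (0.090), Pes1 (0.15), Wdr75 (0.15), Nop14 (0.16), Gnl3 (0.17), Tsr1 (0.18), Nop2 (0.19) and Rrp9 (0.21). Total counts shift all genes alike, since the TMM factors are left out. With upper quartiles the medians were -0.41 for members, -0.42 for mitochondrial ribosomal proteins, -0.27 for RNA polymerase III and -0.026 for all genes, and Rrp1b was at -0.0084. After correction for gene length and base composition by splines with 4 degrees of freedom, which gives no p, the medians were -0.44 for members, -0.26 for other pathway genes, -0.52 for cytosolic and -0.17 for mitochondrial ribosomal proteins, 0.071 for RNA polymerase II, -0.42 for RNA polymerase III and -0.098 for all genes, and the sign turned for Polr1a (-0.32), Imp4 (-0.14), Rrp1b (-0.17), Mrto4 (0.050), Nop2 (0.0070) and Rrp9 (0.17). The cause was not tested. With at least 10 counts in every library, fewer genes were tested, and RNA polymerase II was at 0.0010, all genes at -0.0020 and Rrp9 at 0.012. Rrp9 was at 0.0029 with DESeq2's size factors and 0.0030 with DESeq2's Wald test. Leaving out 1 library gave Rrp9 -0.035 to 0.031, Rrp1b -0.024 to 0.066, a median of -0.40 to -0.35 for mitochondrial ribosomal proteins and of -0.057 to 0.012 for RNA polymerase II. Polr1a lost its call without P3FI-90 replicate 2 and Rrp12 without P3FI-90 replicate 3. Libraries with the same replicate number did not deviate together (correlations of -0.021, 0.015 and 0.0049), but these values cannot tell whether they shared a culture or a day. With the replicate block 35 members were lower and 12 higher, and 4722 genes in all were lower and 4802 higher. Depth does not limit the members, whose lowest DMSO mean was 1566 normalized counts. The table cannot show strand, mate counting or reads shared with near copies.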
